A study of Mus musculus with 22 samples.

Results

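The 30 genes described here encode lysosomal hydrolases and their activators, lysosomal membrane and lipid-export proteins, and TFEB and TFE3, 2 transcription factors of the lysosome. They were chosen by name, and all 30 occur among the 55291 genes counted in mouse liver by RNA-Seq. They comprise 10 genes of glycolipid breakdown, 5 other hydrolases, 5 cathepsins, 8 genes of the lysosomal membrane, its lumen or lipid export, and the 2 transcription factors. All 30 had enough reads to be tested in each of the 7 comparisons made.

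The livers came from 22 male WT C57BL/6 mice injected intravenously on postnatal day 1 and taken 36 hours later. ST3GAL5 is GM3 synthase, which makes the ganglioside GM3 from lactosylceramide, and the study compared vectors that deliver its human cDNA. The groups were PBS (n = 4), AAV9.empty, a capsid without a genome (n = 4), AAV9.EGFP, which expresses EGFP from the CB promoter (n = 4), rAAV9-ST3GAL5.v1, which expresses ST3GAL5 from the same promoter (n = 3), a vector labelled as rAAV9-ST3GAL5.v1 with E332K added (n = 3), and rAAV9-ST3GAL5.v2, with the neuronal Syn1 promoter and binding sites for miR122, a miRNA abundant in hepatocytes (n = 4). All mice were WT, so every liver kept its own St3gal5 gene. The CB promoter, a CMV enhancer joined to a chicken β-actin promoter, is active in most cell types.

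Lysosomes break down glycolipids, glycoproteins, glycogen and proteins with hydrolases that work at acid pH, and liver macrophages and hepatocytes are both rich in them. Gangliosides are degraded there in steps, each with its own hydrolase and often with an activator protein that lifts the lipid from the membrane. TFEB and TFE3 are held in the cytoplasm when mTORC1 is active on the lysosomal surface and otherwise enter the nucleus, where they bind E-box elements near the start of many lysosomal and autophagy genes.

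Promoter sequence was available for 27 of the 30 genes, from RefSeq (GRCm38.p6, 250 bases before to 50 bases after each transcription start). Asah1, Ctsb and Npc1 had no entry. The E-box core CACGTG, which reads the same on both strands, occurred in 9 of the 27 genes (33.3%): Gla, Glb1, Arsa, Gaa, Ctsa, Ctsd, Ctsl, Lamp1 and Mcoln1. It occurred in 8.09% of all 27025 genes with such a promoter and in 11.3% of the 11495 of them that were tested for expression. The longer form TCACGTGA, which contains the core, occurred in 4 of the 27 (Gla, Ctsa, Ctsd and Mcoln1, 14.8%) and in 2.03% of the tested genes. The 10-base palindrome that adds a G before and a C after this form was in none of the 27 and in 0.713% of the tested genes. The sites are shown because this is the element that TFEB and TFE3 are known to bind, and they include both copies in Gla, the gene with the largest difference in expression. Whether any site bears on a difference in expression was not tested. Each line gives 30 bases on the strand of the gene, with the longest of the matched forms in capitals.
Gla, chrX:134601215-134601244, minus strand: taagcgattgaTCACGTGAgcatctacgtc
Gla, chrX:134601182-134601211, minus strand: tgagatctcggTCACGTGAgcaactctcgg
Ctsd, chr7:142387908-142387937, minus strand: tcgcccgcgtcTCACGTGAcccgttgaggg
Ctsa, chr2:164833749-164833778, plus strand: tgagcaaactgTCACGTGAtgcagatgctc
Mcoln1, chr8:3500462-3500491, plus strand: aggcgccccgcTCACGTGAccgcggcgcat
Gaa, chr11:119267811-119267840, plus strand: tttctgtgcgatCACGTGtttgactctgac
Lamp1, chr8:13159088-13159117, plus strand: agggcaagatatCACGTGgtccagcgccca
Glb1, chr9:114401018-114401047, plus strand: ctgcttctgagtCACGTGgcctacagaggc

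The 2 copies in Gla began 227 and 194 bases before the RefSeq start. GENCODE places the start of Gla further upstream, at position 134601125 of chromosome X, and both copies lie before that start as well. The sites shown for Ctsd, Ctsa, Mcoln1 and Gaa began 98, 12, 45 and 140 bases before their starts. Ctsa held a second copy of the longer form, which began at base 6 when the start is base 1. Ctsd and Mcoln1 each held a further core, 245 and 71 bases before their starts. Lamp1 held 4 copies of the core between 61 and 15 bases before its start, which is the highest number among the 27 genes. A match is a description of these letters and does not show binding in the liver. The plot of E-box positions gives all of them.

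**Figure D1:**
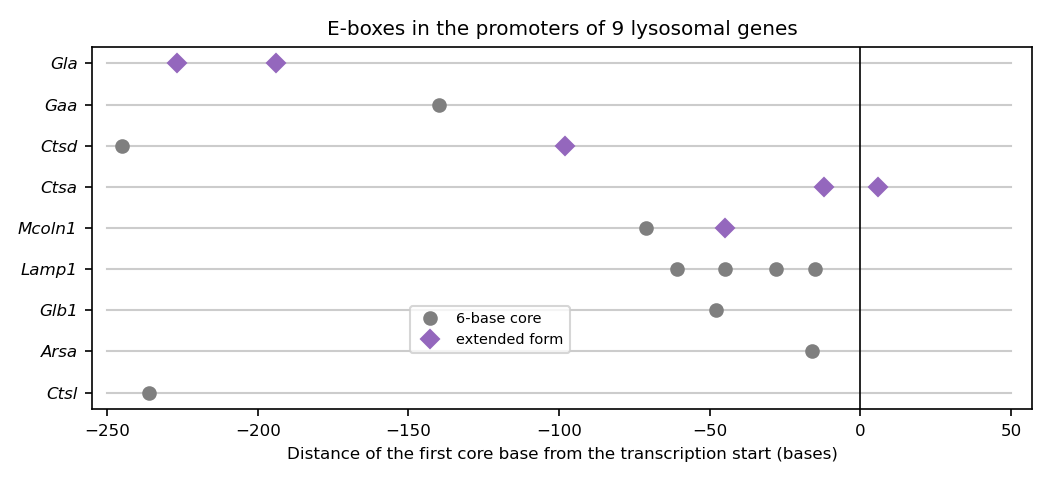
Position of each E-box in the promoters of the 9 lysosomal genes that hold one; the x axis is the distance in bases from the RefSeq transcription start (0) and the grey line is the window searched. Diamonds mark the longer 8-base form, found in Gla, Ctsd, Ctsa and Mcoln1, and circles the 6-base core alone, of which Lamp1 holds 4.

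Per transcript length, the 30 genes spanned a wide range of levels. With PBS the highest was Ctsl, the cysteine protease cathepsin L, at 497 ± 23.0 TPM (SD, n = 4), and the lowest was Ids, the sulfatase iduronate 2-sulfatase, at 2.23 ± 0.524 TPM. Below Ctsl followed the protease Ctsb at 336 ± 31.8 TPM, Psap, which encodes the saposin activators of sphingolipid hydrolases, at 306 ± 10.9 TPM, and the aspartyl protease Ctsd at 270 ± 10.3 TPM. The order of Ctsb and Psap was not separated by their spread. Of the membrane proteins Cd63 and Lamp1 stood highest, at 197 ± 13.5 and 187 ± 2.54 TPM. The glycolipid hydrolases all lay below these, with Hexa highest at 36.1 ± 2.19 TPM. Glb1, the β-galactosidase of GM1, was at 11.5 ± 0.623 TPM. Galc, the galactosylceramidase, was at 3.16 ± 0.490 TPM and Gla, the α-galactosidase A that degrades globotriaosylceramide, at 2.72 ± 0.507 TPM. Low levels were not particular to this class, since Idua, of the other hydrolases, was at 2.84 ± 0.443 TPM. TFE3 RNA was more abundant than TFEB RNA, at 12.5 ± 0.515 against 7.88 ± 1.72 TPM.

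Together the 30 genes took 0.461% to 0.581% of the expected counts of a library. Their summed level was 5087 to 5767 CPM (counts scaled to library size) with PBS, 4920 to 5684 with AAV9.empty, 5213 to 5360 with AAV9.EGFP, 5127 to 5357 with rAAV9-ST3GAL5.v1, 5121 to 5655 with the E332K vector and 4617 to 5099 with rAAV9-ST3GAL5.v2. In CPM all ranges overlapped that of PBS, that of rAAV9-ST3GAL5.v2 only through its highest liver. In TPM the sums were 2706 to 2774 with PBS, 2894 to 3195 with rAAV9-ST3GAL5.v1 and 2297 to 2537 with rAAV9-ST3GAL5.v2. There the first vector lay above PBS and the second below it, with no overlap. AAV9.empty, AAV9.EGFP and the E332K vector overlapped PBS in TPM as well. TPM also shifted the median over all genes, as given in the last section. Between the highest and the lowest of the 6 group means, Gla differed 2.68-fold and no other member by more than 1.45-fold (Tfe3). The median of this ratio was 1.25 over the 30 members and 1.34 over the 9869 genes of at least the same mean level (7.43 CPM, that of Idua). It was under 1.5 for 29 of 30 members and for 69.8% of those genes. Those genes share only this minimum with the members and were not matched to them in level.

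**Figure D2:**
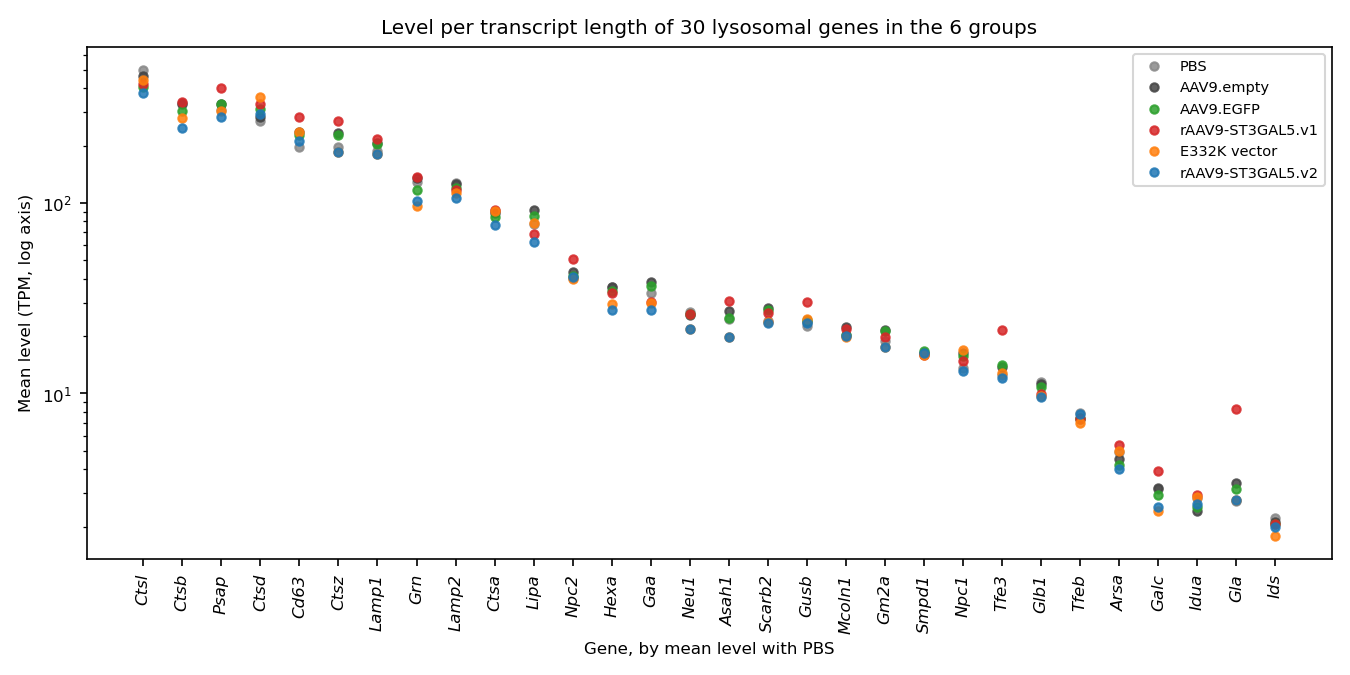
Mean level of each of the 30 genes in each of the 6 groups (TPM, which accounts for transcript length, on a log axis), with genes ordered by their level with PBS. The groups lie close together for 29 genes, and the rAAV9-ST3GAL5.v1 mean of Gla stands apart from the other 5.

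The first comparison asked how the livers with the first-generation ST3GAL5 vector differed from those given the empty capsid. Of the 30 genes, 2 were higher and 3 lower with rAAV9-ST3GAL5.v1 at an adjusted p of at most 0.05 (edgeR's quasi-likelihood test, Benjamini-Hochberg adjustment over all genes tested). Gla and Tfe3 rose, and Lipa, Gaa and Npc1 fell. This is 5 of 30 genes, where 28.1% of all 14876 genes tested passed, so the share of members that passed was not above that of the genome. The median log2 fold change was −0.07 over the members and 0.02 over all genes tested. In bulk liver RNA a lower level of a gene in each cell and fewer cells of a type that expresses it cannot be told apart.

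Gla was at 20.8, 21.6 and 15.6 CPM in the 3 livers given rAAV9-ST3GAL5.v1 and at 10.2, 8.21, 8.41 and 8.0 CPM in the 4 given AAV9.empty. Every liver with the vector lay above every liver with the empty capsid, and also above all other 15 livers of the study, of which the highest was at 9.81 CPM. The log2 fold change was 1.15 ± 0.14 (SE; 2.22-fold, adjusted p = 0.00069). The 386 to 433 expected counts per liver behind the higher level and 155 to 219 behind the lower one are modest, since Gla is among the least abundant members. Gla was the only member past 2-fold in this comparison, where 8.0% of all genes passed both thresholds. Gla lies on chromosome X at 134588149 to 134601125 (GRCm38, minus strand), and GENCODE lists no other gene over its exons.

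Tfe3 (chromosome X, 7762560 to 7775202, plus strand) was at 46.0, 59.7 and 44.5 CPM with rAAV9-ST3GAL5.v1 and at 32.6, 38.7, 33.3 and 37.2 CPM with AAV9.empty. The groups did not overlap, and the second vector liver stood well above the other 2. The log2 fold change was 0.50 ± 0.12 (adjusted p = 0.011), and without that liver it was 0.36 and still passed. Tfeb itself was at 10.9, 12.7 and 10.2 CPM against 13.6, 15.3, 10.9 and 10.3 CPM. Here the groups overlapped, and the log2 fold change of Tfeb was −0.15 ± 0.16 (adjusted p = 0.52).

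Lipa (chromosome 19, 34492318 to 34527474, minus strand) encodes the acid lipase that releases cholesterol and fatty acids from lipoprotein lipids. It was at 165, 145 and 175 CPM with rAAV9-ST3GAL5.v1. With AAV9.empty it was at 231, 244, 238 and 206 CPM. The groups were well separated, and Lipa fell by 0.50 ± 0.10 on the log2 scale (adjusted p = 0.0046). Gaa (chromosome 11, 119267887 to 119285454, plus strand) encodes the acid α-glucosidase that degrades glycogen. It was at 81.1, 83.1 and 91.9 CPM against 119, 134, 114 and 101 CPM. The highest vector liver lay below the lowest control liver, and the log2 fold change was −0.45 ± 0.11 (adjusted p = 0.012). Npc1, which exports cholesterol from the lysosome, was at 45.2, 49.9 and 47.6 CPM against 57.5, 62.5, 63.6 and 56.0 CPM. The log2 fold change was −0.33 ± 0.08 (adjusted p = 0.014), again with no overlap. Without the first rAAV9-ST3GAL5.v1 liver the adjusted p was 0.058 for Gaa and 0.062 for Npc1, and only 3 members, Gla, Tfe3 and Lipa, kept their call.

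**Figure D3:**
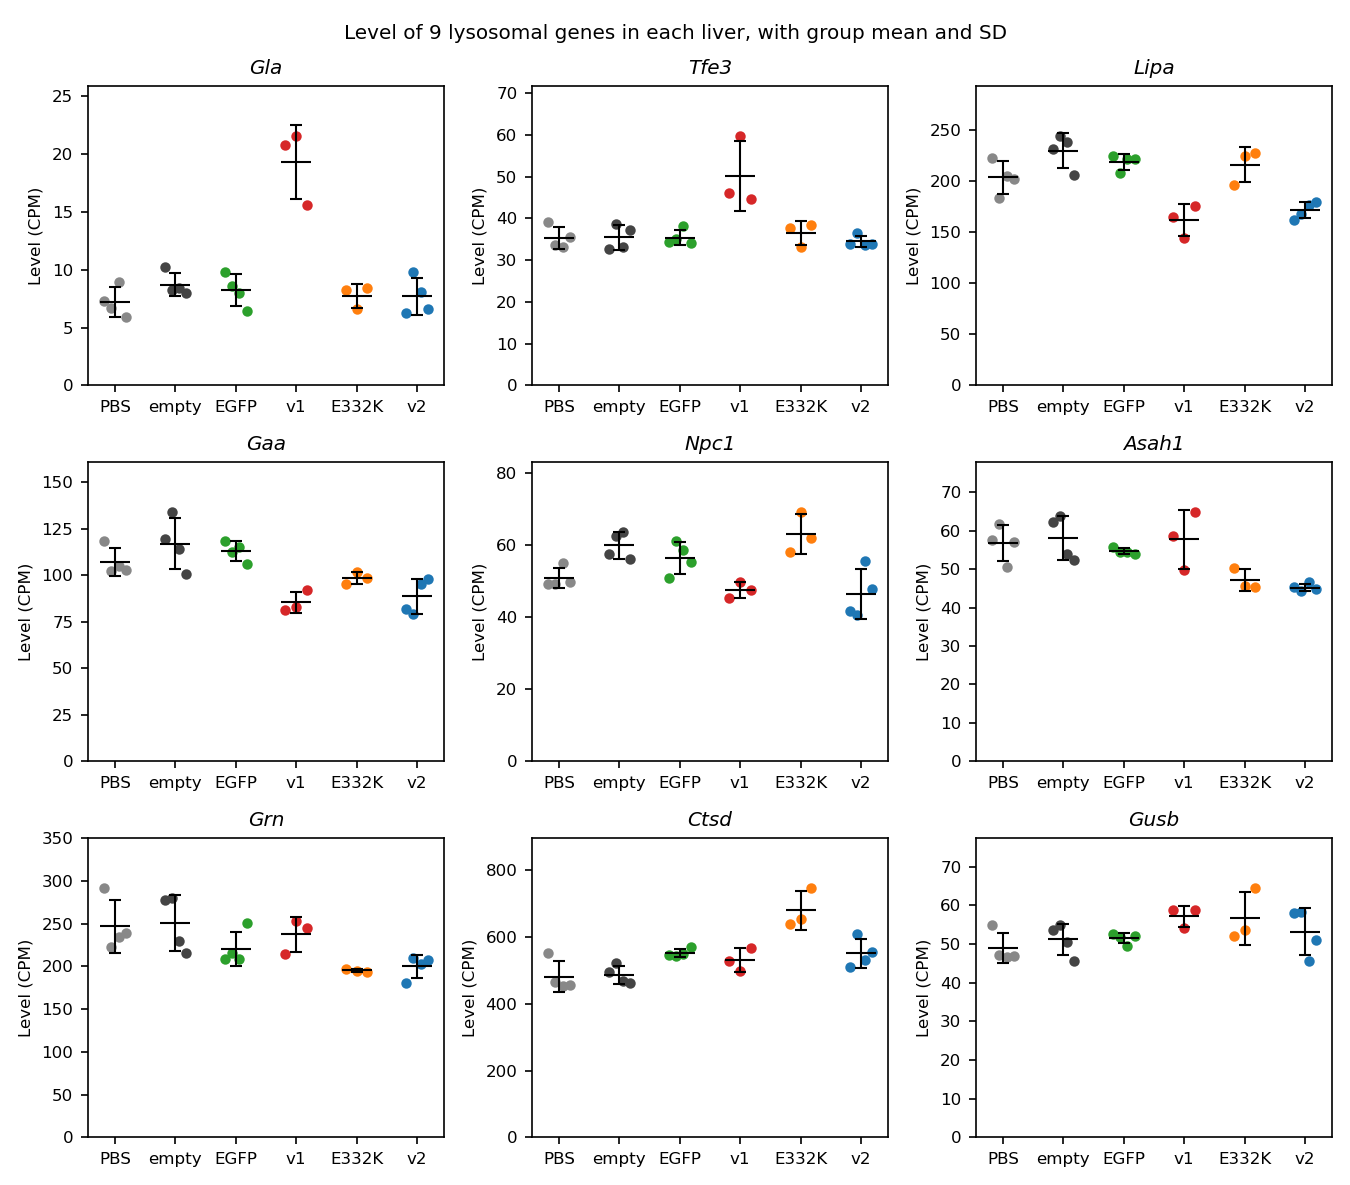
Level (CPM, axes from 0) of 9 lysosomal genes in each of the 22 livers, grouped by treatment, with the group mean and SD as black bars. Gla and Tfe3 are highest with rAAV9-ST3GAL5.v1, Ctsd is highest with the E332K vector, Lipa is lowest with rAAV9-ST3GAL5.v1 and rAAV9-ST3GAL5.v2, and the rAAV9-ST3GAL5.v1 livers lie within the range of the other groups for Gusb.

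Among the glycolipid genes 9 of 10 did not pass in this comparison. Psap was at 821, 816 and 841 CPM with rAAV9-ST3GAL5.v1 and at 725, 739, 712 and 721 CPM with AAV9.empty, which do not overlap, but the log2 fold change of 0.19 had an adjusted p of 0.053. Psap passed in DESeq2 (adjusted p = 0.011), in edgeR with all 6 groups in one fit (adjusted p = 0.044) and in limma on log2(TPM + 0.1) (adjusted p = 0.017). Galc, at a log2 fold change of 0.30 (adjusted p = 0.079), also had groups that did not overlap. The hydrolases of the ganglioside pathway proper had values below 0 without passing: −0.28 for Glb1, −0.20 for Hexa, the α subunit of β-hexosaminidase, −0.21 for its activator Gm2a and −0.07 for the sialidase Neu1. Asah1, the acid ceramidase, stood at −0.00. In all, 9 of 30 members had groups of livers that did not overlap, 4 higher and 5 lower, where 37.6% of all genes tested did (18.5% higher and 19.2% lower).

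Gusb, the β-glucuronidase often used to report lysosomal activity, did not pass in any of the 7 comparisons with edgeR. It was at 58.7, 54.1 and 58.9 CPM with rAAV9-ST3GAL5.v1 and at 53.7, 54.8, 50.6 and 45.8 CPM with AAV9.empty. The second control liver lay within the range of the vector livers, and the log2 fold change was 0.16 (adjusted p = 0.19), whereas limma on log2(TPM + 0.1) gave 0.35 (adjusted p = 0.028). The 5 cathepsins did not pass either, with log2 fold changes from −0.29 for Ctsl to 0.13 for Ctsd. Of the 8 membrane and export genes only Npc1 passed. Lamp1 and Lamp2, the most abundant glycoproteins of the lysosomal membrane, stood at −0.03 and −0.15, and the lysosomal calcium channel gene Mcoln1 at −0.16.

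The balance of directions differed between edgeR on counts and limma on log2(TPM + 0.1), which differ in test and filter as well as in scale. With limma 4 members were higher and 2 lower, against 2 and 3 in edgeR, and over all genes 1951 were higher and 1150 lower, against 2049 and 2134. In TPM the median of all genes lay at 0.12 for this comparison. Gla, Tfe3, Lipa and Gaa passed in both, Psap and Gusb in limma and not in edgeR, and Npc1 in edgeR and not in limma.

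Marker genes of liver cell types also differed in this comparison. Of 9 hepatocyte markers 8 fell and 1 rose with rAAV9-ST3GAL5.v1. This was 5 and 1 in limma on TPM and 6 and 1 with the replicate number as a block. Their summed level was 78293 to 92976 CPM against 109426 to 128461 CPM with AAV9.empty. All 10 neutrophil markers rose, from a summed 1529 to 1663 CPM to 2214 to 2606 CPM. Of 15 Kupffer cell and monocyte markers 4 rose and 6 fell, a split that was 5 and 4 in TPM. The log2 fold changes of those that rose were 1.09 for Itgam, 0.97 for Ccr2, 0.75 for Ly6c2 and 0.60 for Lyz2. Those that fell were Clec4f (−1.13), Vsig4 (−0.96), Csf1r (−0.81), Timd4 (−0.68), C1qc (−0.47) and C1qa (−0.37). Their sums of 1509 to 1884 and 1569 to 2073 CPM overlapped, but a sum combines these opposite shifts. No marker of any list was at 0 in any liver. The part of these shifts in the differences of the lysosomal genes was not tested.

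Further genes of the lysosome and its regulation, 151 in all, were looked up in the same comparison. Of 20 V-ATPase subunits, which acidify the lysosome, 7 rose and none fell (median log2 fold change 0.16; 1 rose with the replicate number as a block), including Atp6v0a1 (0.54), Atp6v1d (0.35), Atp6ap2 (0.31) and Atp6v1g1 (0.28). Of 34 autophagy genes 9 rose and 2 fell, with the cargo receptor gene Sqstm1 at 0.89, Becn1 at 0.30, the kinase gene Ulk2 at −0.66 and Tex264 at −0.67. Of 25 further membrane and transport genes 5 rose and 2 fell, led by Litaf (1.33), with the ion channel gene Tpcn2 at 0.72, the metal transporter gene Slc11a1 at 0.51 and the amino acid transporter gene Slc36a1 at −0.51. Of 43 further hydrolases and sorting genes 6 rose, such as the protease Lgmn (0.46), and 10 fell, such as the thioesterase Ppt2 (−0.63), the hyaluronidase Hyal2 (−0.51) and Sumf1 (−0.33), which activates sulfatases. In limma on log2(TPM + 0.1) these hydrolases were 6 higher and 2 lower, and the V-ATPase subunits 8 and 0. Of 26 regulators of the TFEB family and of mTORC1 on the lysosome 5 rose and 3 fell, with Flcn at 0.59, Lamtor2 at −0.41, the mTORC1 activator gene Rheb at 0.40 and its inhibitor gene Tsc2 at −0.31. Counting all genes tested, 13.8% rose and 14.3% fell.

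**Figure D4:**
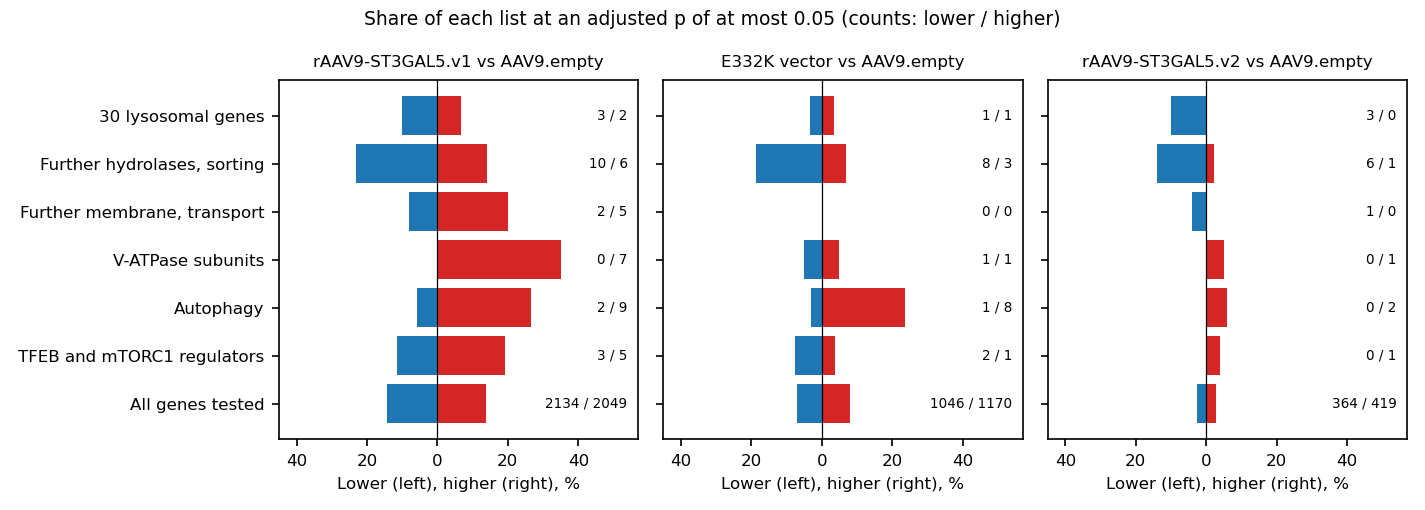
Share of each gene list that was lower (blue, left) or higher (red, right) than AAV9.empty at an adjusted p of at most 0.05, in percent, with the counts at the right of each panel. For rAAV9-ST3GAL5.v1 the V-ATPase subunits show 7 higher and 0 lower, while the 30 lysosomal genes show 2 higher and 3 lower beside a share of 28.1% of all genes.

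The E332K vector was compared with the same AAV9.empty livers, so its values share those controls. Against them 1 member rose and 1 fell, 2 of 30, where 15.0% of all 14759 genes tested passed (7.93% higher, 7.09% lower). None passed a 2-fold change as well, where 3.08% of all genes did. Ctsd, the aspartyl protease (chromosome 7, 142375911 to 142388038, minus strand), was at 638, 654 and 747 CPM with the E332K vector and at 496, 521, 469 and 463 CPM with AAV9.empty. All 3 livers lay above all 4 controls, with a log2 fold change of 0.48 ± 0.09 (adjusted p = 0.0057). The gene model Gm49369 overlaps 34.4% of the exon bases of Ctsd on the same strand and had a mean of 0.174 CPM. Grn, which encodes progranulin, a precursor taken up into lysosomes, was at 198, 195 and 194 CPM against 278, 280, 229 and 216 CPM. The 3 vector livers were nearly equal and lay below all controls, and the log2 fold change was −0.36 ± 0.11 (adjusted p = 0.042). The call of Grn was lost when any 1 of 6 of the 7 libraries was left out and held only without AAV9.empty liver 4, whereas Ctsd passed in all 7.

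The genes that stood out with rAAV9-ST3GAL5.v1 had other values with the E332K vector. Against AAV9.empty the log2 fold change was −0.17 for Gla, 0.04 for Tfe3, −0.09 for Lipa, −0.25 for Gaa and 0.07 for Npc1, and none passed. Asah1, at −0.30 (adjusted p = 0.059), did not pass, though its groups did not overlap. Whether they passed or not, 3 members had groups apart (Ctsd, Grn and Asah1), where 27.0% of all genes did. The autophagy list showed 8 genes higher and 1 lower, with Atg13 at 0.92 and Sqstm1 at 0.81, and the further hydrolases 3 higher and 8 lower, with the protease Ctsc at −0.65. Among the regulators 1 rose and 2 fell, namely Ppargc1a at −1.32 and Bhlhe40 at −0.84. Of the V-ATPase subunits 1 rose and 1 fell (Atp6v0d1 at 0.39 and Tcirg1 at −0.35), and none of the 25 further membrane genes passed in edgeR or limma, where 2 had an unadjusted p under 0.05 and 1 fell in DESeq2. Hepatocyte markers summed to 92370 to 103274 CPM, below all AAV9.empty livers, and 2 of the 9 fell, while 4 neutrophil markers rose and 1 fell. Of the 15 Kupffer cell and monocyte markers 1 rose and 3 fell, with 0 higher and 6 lower in limma on TPM, and they summed to 1398 to 1637 CPM, against 1569 to 2073 CPM with AAV9.empty. The part of these shifts in the values of Ctsd, Grn and Asah1 was not tested. In TPM, where the median of all genes lay at −0.12, the autophagy list held 2 higher and 1 lower.

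Set against each other, rAAV9-ST3GAL5.v1 and the E332K vector differed in 3 of 30 members, where 19.6% of all 14742 genes tested did (9.55% higher and 10% lower with rAAV9-ST3GAL5.v1). The dose of the E332K vector is not given in the sources used here, so a difference in dose and the change in the cassette cannot be told apart. Gla was higher with rAAV9-ST3GAL5.v1 by a log2 fold change of 1.33 ± 0.18 (adjusted p = 0.0040), from 8.21, 6.59 and 8.46 CPM with the E332K vector. Tfe3 was higher by 0.47 ± 0.14 (adjusted p = 0.047), from 37.8, 33.1 and 38.5 CPM, and Npc1 lower by a log2 fold change of −0.39 ± 0.11 (adjusted p = 0.035), from 58.2, 69.2 and 61.9 CPM. The groups did not overlap for any of the 3 genes, and Gla alone passed a 2-fold change as well, where 6.94% of all genes did. Lipa (−0.40, adjusted p = 0.051), the cysteine protease Ctsz (0.34, adjusted p = 0.054) and Ctsd (−0.34, adjusted p = 0.087) had groups apart but did not pass. In all 12 members had groups apart, where 43.0% of all genes did. In TPM, where the median of all genes lay at 0.21, 6 members were higher and none lower. Of all 12963 genes tested there, 2060 were higher and 522 lower. The counts of the further lists also differed between edgeR on counts and limma on TPM. In edgeR 6 hydrolases were higher, such as Ctsc (1.22) and Ctss (0.79), and 10 lower, while in limma 9 were higher and none lower. For autophagy 1 gene was higher and 3 lower in edgeR, among them Atg16l1 (−0.42) and Map1lc3a (−0.57), and 3 higher and none lower in limma. The V-ATPase subunits were 3 higher and none lower, with Atp6ap2 at 0.50 and Atp6v1b2 at 0.41, the membrane genes 3 higher and 1 lower, with Litaf at 1.27 and Slc11a1 at 0.59, and the regulators 3 higher and 2 lower, with Bhlhe40 at 1.19 and Lamtor2 at −0.54. Beside these, 5 of 10 neutrophil markers were higher and 4 of 9 hepatocyte markers lower with rAAV9-ST3GAL5.v1, and 1 hepatocyte marker was higher. Of 15 Kupffer cell and monocyte markers 3 were higher and 2 lower. In limma on TPM these were 7 and 1, with 7 neutrophil markers higher and 1 hepatocyte marker each way. The part of these shifts in the differences of the lysosomal genes was not tested.

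Tfe3 and Npc1 each held this difference in 1 of the 6 sets of libraries with 1 left out, and Gla in all 6. Gm47283, a predicted gene, had no read in any of the 3 rAAV9-ST3GAL5.v1 livers and had reads in all 3 with the E332K vector, so its presence and the treatment cannot be told apart here. It was also without reads in 1 AAV9.empty, 3 AAV9.EGFP and 2 rAAV9-ST3GAL5.v2 livers. With its presence as a covariate, the comparison of rAAV9-ST3GAL5.v1 with AAV9.empty rests on the single control liver without it. Gla stood there at a log2 fold change of 1.28, and no count of genes is drawn from this fit.

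AAV9.EGFP has the CB promoter and another cargo. Compared with it, rAAV9-ST3GAL5.v1 again showed 2 members higher and 3 lower, 5 of 30, where 27.8% of all 14875 genes tested passed (12.7% higher, 15.1% lower). Past 2-fold was 1 member, Gla, where 7.62% of all genes were, and 11 members had groups apart, where 37.7% of all genes did. Both comparisons use the same 3 rAAV9-ST3GAL5.v1 livers. Gla was at 9.79, 8.62, 7.99 and 6.47 CPM with AAV9.EGFP, below all vector livers, for a log2 fold change of 1.22 ± 0.16 (adjusted p = 0.0011). Tfe3 was higher by 0.49 (adjusted p = 0.0098), from 34.3, 35.0, 38.2 and 34.1 CPM. Lipa stood at −0.45 (adjusted p = 0.0046) from 224, 208, 222 and 221 CPM, Gaa at −0.42 (adjusted p = 0.0040) from 118, 113, 115 and 106 CPM, and Npc1 at −0.26 (adjusted p = 0.045). For the first 4 of these genes the call held whichever of the 7 libraries was left out, and for Npc1 in 2 of 7. In TPM 7 members were higher and 1 lower, with the median of all genes at 0.15. Of all 13073 genes tested there, 2358 were higher and 1071 lower. In the further lists 3 V-ATPase subunits rose and none fell, Atp6v0a1 and Atp6ap2 both at 0.35. The other lists had 6 hydrolases higher and 8 lower (Lgmn 0.50, Ppt2 −0.64), 3 membrane genes each way (Litaf 1.38, Slc36a1 −0.60), 4 autophagy genes higher and 5 lower (Sqstm1 0.80, Vps18 0.51) and 6 regulators higher and 3 lower (Lamtor2 −0.50, Lamtor4 −0.39). Of the markers, 1 of 9 for hepatocytes was higher and 6 lower (1 and 5 in limma on TPM). For neutrophils 5 of 10 were higher and none lower (8 and 0 in limma on TPM). For Kupffer cells and monocytes 4 of 15 were higher and 5 lower (5 and 2 in limma on TPM). The part of these shifts was not tested.

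rAAV9-ST3GAL5.v2, whose cassette is directed away from hepatocytes, showed 3 members lower than AAV9.empty and none higher, where 5.38% of all 14558 genes tested passed (2.50% lower and 2.88% higher). None of them passed a 2-fold change, where 0.591% of all genes did. Lipa was at 162, 168, 177 and 180 CPM, below all 4 AAV9.empty livers, for a log2 fold change of −0.42 ± 0.08 (adjusted p = 0.014). Asah1, which splits ceramide, was at 45.2, 44.2, 46.5 and 44.9 CPM against 62.2, 63.7, 53.9 and 52.3 CPM. Its 4 livers were close to one another and all lay below the controls, with a log2 fold change of −0.36 ± 0.08 (adjusted p = 0.027). Gaa was at 81.9, 79.0, 95.4 and 97.9 CPM, the highest of them just under the lowest control at 101 CPM, for a log2 fold change of −0.40 ± 0.10 (adjusted p = 0.042). Another 3 members had groups apart without passing: Npc1 (−0.36, adjusted p = 0.055), Hexa (−0.26, adjusted p = 0.084) and Grn (−0.32, adjusted p = 0.084). These 6 were all lower, where 14.4% of all genes had groups apart, 7.47% lower and 6.90% higher. Gla, at −0.18, and Tfe3, at −0.03, did not pass.

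Of the 30 members 23 had a value below 0 with rAAV9-ST3GAL5.v2, with a median log2 fold change of −0.12 beside 0.01 over all genes tested. DESeq2 called 6 members lower, where 4.56% of all genes were, and limma on log2(TPM + 0.1) 7, where 6.00% of all genes were, on a scale where the median of all genes lay at −0.11. The 3 calls were fragile to single libraries. None remained without AAV9.empty liver 2, and 1 remained without AAV9.empty liver 1 or rAAV9-ST3GAL5.v2 liver 1 or 4. Kupffer cell and monocyte markers were lower with this vector in the same comparison, 4 of 15 past the threshold and none higher, and summed to 1214 to 1481 CPM against 1569 to 2073 CPM, with no overlap. No hepatocyte marker passed in edgeR (2 of 9 had an unadjusted p under 0.05), 1 fell in DESeq2 and 2 fell in limma on TPM, and their sums of 95346 to 121158 CPM overlapped the controls. Of the further hydrolases 1 rose and 6 fell, led by Ctsc (−0.63), a protease abundant in myeloid cells. The part of the marker shift in these values was not tested. The other lists had 1 gene each past the threshold, Slc11a1 at −0.39, Atp6v0a1 at 0.26 and the repressor gene Zkscan3 at 0.31, except for 2 autophagy genes, Atg4b and Atg16l1, both at 0.29.

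**Figure D5:**
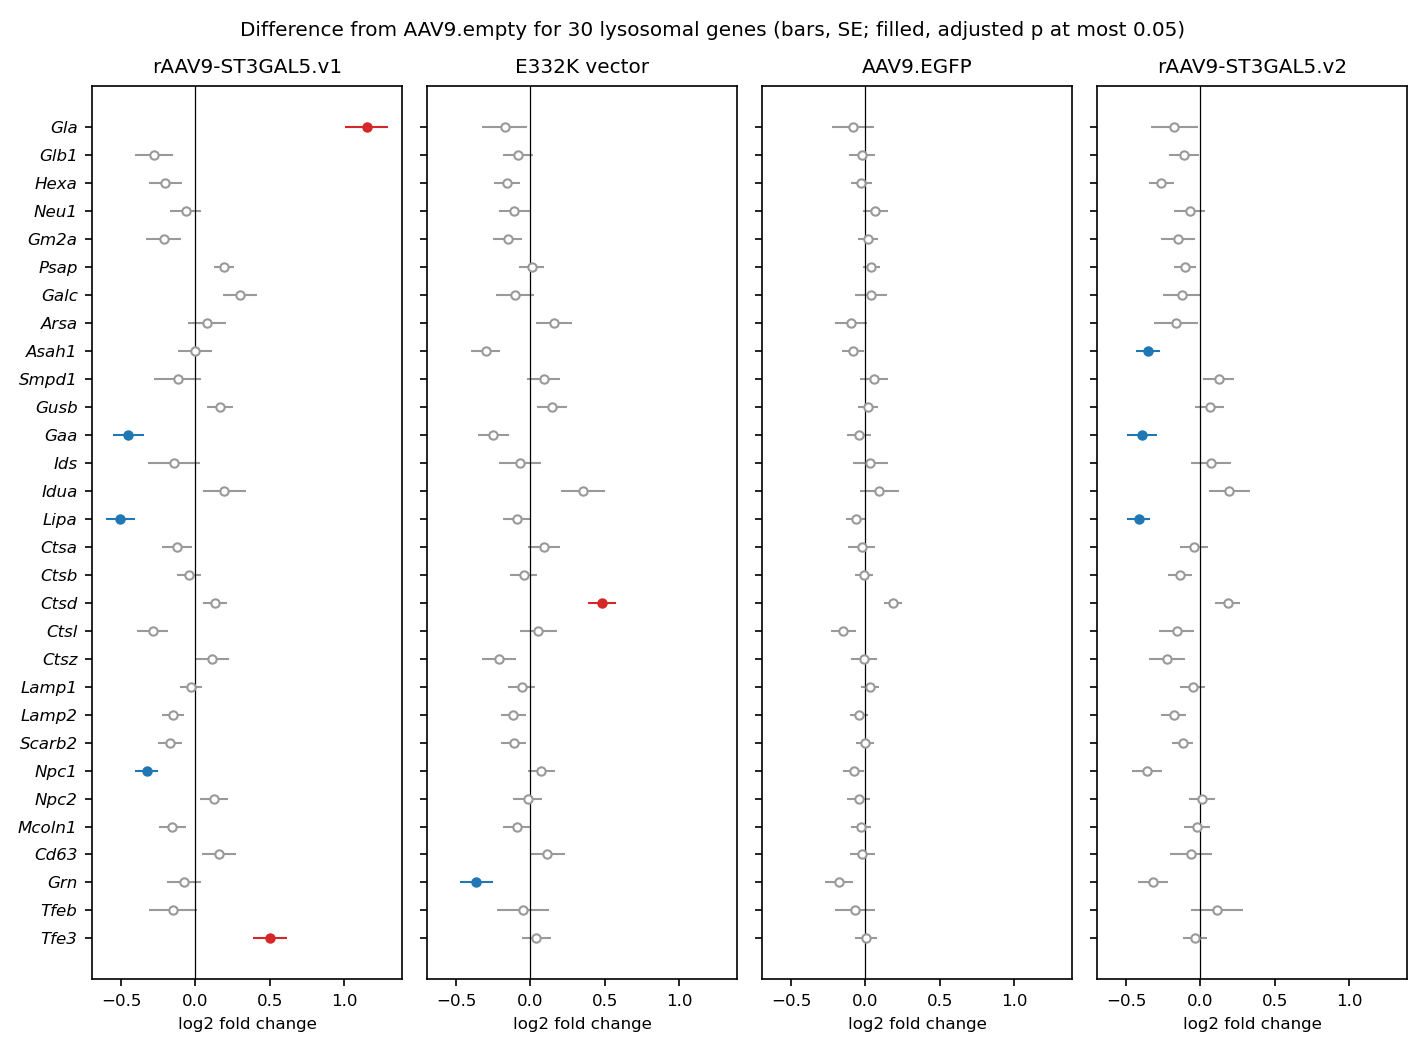
Log2 fold change against AAV9.empty of the 30 lysosomal genes for 4 vectors, with its SE as a bar; filled points passed an adjusted p of 0.05 (red higher, blue lower) and open points did not. Gla with rAAV9-ST3GAL5.v1, at 1.15, is the only point past 1, and no AAV9.EGFP point is filled.

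No member passed between the control treatments. Between AAV9.EGFP and AAV9.empty 0 of 30 passed in edgeR, DESeq2 and limma alike, and 1 of 30 had an unadjusted p under 0.05, where 0.442% of all 14473 genes passed (0.166% with a 2-fold change). Only Ctsd had groups apart, where 6.72% of all genes did. The log2 fold changes lay between −0.18 (Grn) and 0.19 (Ctsd), with a median SE of 0.08. Between AAV9.empty and PBS 0 of 30 passed in the same 3 tools and 6 of 30 had an unadjusted p under 0.05, where 0.311% of all 14476 genes passed (0.0276% with a 2-fold change). Npc1 and Scarb2, a receptor that carries β-glucocerebrosidase to the lysosome, had groups apart, where 7.11% of all genes did. There the values lay between −0.32 (Idua, the iduronidase) and 0.27 (Gla). With PBS, Gla was at 7.26, 6.72, 8.95 and 5.90 CPM, which overlapped the AAV9.empty livers. Lipa, at 223, 184, 205 and 202 CPM, and Npc1, at 49.3, 49.2, 55.1 and 49.7 CPM, lay lower with PBS than with AAV9.empty (log2 fold changes of AAV9.empty over PBS 0.17 and 0.23), so that for Npc1 the PBS livers overlapped those with rAAV9-ST3GAL5.v1.

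Across the 7 comparisons 8 of the 30 members passed at least once with edgeR: Gla, Tfe3, Lipa, Gaa, Npc1, Asah1, Ctsd and Grn. Of the 14065 genes tested in all 7 comparisons, 45.4% passed at least once. The other 22 passed in none, among them the β-galactosidase, β-hexosaminidase α subunit and sialidase genes Glb1, Hexa and Neu1, the activators Psap and Gm2a, the sulfatases Arsa and Ids, the sphingomyelinase Smpd1, 4 of the 5 cathepsins, Lamp1, Lamp2, Scarb2, Mcoln1, Cd63, the cholesterol carrier Npc2, Idua, Galc, Gusb and Tfeb. Of the 8 genes that passed, Gla, Gaa and Ctsd hold the E-box core in the window searched, Tfe3, Lipa and Grn do not, and Asah1 and Npc1 had no promoter entry. Among all 27 members with an entry 9 hold the core (33.3%), including members that passed in no comparison. The kit does not mark strand, so reads of genes that overlap on opposite strands cannot be told apart. GENCODE places another gene over some exon bases of 13 members, over more than 10% of them for 6 (Hexa, Arsa, Ctsa, Ctsb, Ctsd and Ctsl), and over 4.52% for Npc1, which shares them with Rmc1.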

How the data were processed

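Liver RNA of 22 mice in 6 groups was sequenced by the authors after poly-T capture with an unstranded kit. Per the labels and the methods, reads were trimmed with Trimmomatic, aligned with STAR and quantified with RSEM in DolphinNext against mm10; the annotation release and the versions are not given in the sources used here. The authors deposited expected counts, which RSEM estimates for each gene and which keep the depth of the library, and TPM, which is corrected for transcript length and scaled to each library. Libraries held 17164502 to 24305788 expected counts, with 18.0% to 24.2% in the 10 most abundant genes.

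Expected counts were rounded to whole numbers. Each pair of groups was fitted in R 4.3.3 with edgeR 4.0.16 (TMM factors, filterByExpr, quasi-likelihood F-test). P-values were adjusted by Benjamini-Hochberg over every gene tested and called at 0.05. SE is the absolute log2 fold change divided by the square root of F. Levels are CPM with TMM factors of all 22 libraries. Alternatives were DESeq2 1.42.0, edgeR with the size factors of DESeq2 (median of ratios), edgeR without filtering, limma 3.58.1 on log2(TPM + 1) and log2(TPM + 0.1), keeping genes whose mean TPM reached 1, the former also unfiltered, one fit of all 6 groups, a block for the replicate number, the presence of Gm47283 as a covariate, a fold change of at least 2, and leaving out each library. The test was also run on simulated data, but the outcome is not given here and no result rests on it. Replicates differed by more than counting noise in every pair (lowest chi-square per degree of freedom 7.21), so no library was counted as a duplicate. Litters are not given in the labels, so p-values reflect only how far these livers differ from one another.

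Gene positions and overlaps come from GENCODE vM21 (GRCm38), which holds 98.7% of the 142604 transcript identifiers in the tables and 166 of 170 of the members. Promoters come from RefSeq on GRCm38.p6.

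The members, lists and tests were chosen with earlier results of these data known. Named genes followed a rule: values per liver for Tfeb, Tfe3, Gusb and members past the threshold with groups apart in rAAV9-ST3GAL5.v1 against AAV9.empty, any member past the threshold in a comparison, and up to 4 genes of each further list with the smallest adjusted p there, or 2 in the other comparisons. A further gene that this rule names is not reported here. Marker lists covered hepatocytes, Kupffer cells and monocytes, neutrophils, erythroid cells (4 of 8 higher with rAAV9-ST3GAL5.v1 against AAV9.empty, none lower) and sinusoidal endothelium (2 higher and 3 lower of 8). The values of other members were printed after they had been seen. So were those of the Kupffer cell and monocyte markers past the threshold with rAAV9-ST3GAL5.v1 against AAV9.empty.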

Additional observations from a re-analysis of the deposited data

Results flagged for a closer look

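Within the groups of 4 livers, single livers stood apart by Dixon's test in 10 of 120 combinations of member and group (8.33%), where chance flags about 1 in 20. Liver 1 of the PBS group was high for Gusb at 55.0 CPM (others 46.7 to 47.3), for Ctsd at 551 CPM (others 454 to 465) and for Ctsz at 246 CPM (others 206 to 212). Liver 3 of the PBS group was high for Npc1 at 55.1 CPM (others 49.2 to 49.7). Liver 3 of the AAV9.EGFP group was low for Ids at 8.92 CPM (others 9.28 to 9.31) and high for the membrane receptor gene Scarb2 at 122 CPM (others 112). Liver 4 of the same group was high for Ctsd at 569 CPM (others 544 to 548) and Grn at 250 CPM (others 209 to 215) and low for Mcoln1 at 25.7 CPM (others 26.3 to 26.4). Liver 2 of the rAAV9-ST3GAL5.v2 group was high for Tfe3 at 36.6 CPM (others 33.7 to 33.9). The groups of 3 livers were not tested in this way.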

How the results depend on the processing

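Counts of members past the threshold are given here beside 5, 2, 0, 3, 3, 5 and 0 for rAAV9-ST3GAL5.v1, the E332K vector, AAV9.EGFP and rAAV9-ST3GAL5.v2 against AAV9.empty, rAAV9-ST3GAL5.v1 versus the E332K vector and versus AAV9.EGFP, and AAV9.empty against PBS. With a fold change of at least 2 they were 1, 0, 0, 0, 1, 1 and 0. Leaving out 1 library gave 3 to 7, 1 to 3, 0, 0 to 4, 1 to 3, 4 to 6 and 0. Over all genes it gave 2681 to 4361, 1424 to 1977, 44 to 106, 197 to 984, 934 to 3152, 2664 to 4383 and 5 to 234. DESeq2 gave 6 for rAAV9-ST3GAL5.v2, where 1330 of all 14558 genes passed. Between rAAV9-ST3GAL5.v1 and the E332K vector it gave 6, where 3376 of 14742 genes passed. For that pair all 6 groups in one fit gave 9, where 4991 of 15873 genes passed. At pseudocounts of 1 and 0.1, limma gave 7 and 7 for rAAV9-ST3GAL5.v2, where 982 and 984 of all 12893 genes passed. Between rAAV9-ST3GAL5.v1 and the E332K vector it gave 7 and 6, where 2531 and 2582 of 12963 did. Between rAAV9-ST3GAL5.v1 and AAV9.EGFP it gave 8 and 8, where 3395 and 3429 of 13073 did. With no filter it gave 5 between rAAV9-ST3GAL5.v1 and the E332K vector, where 1144 of 24768 did. The E332K vector against AAV9.empty then gave 0, where 841 of 24882 did. Gm47283 as a covariate left a single control liver for rAAV9-ST3GAL5.v1 against AAV9.empty, so no count of members is given there. It could not be fitted against the E332K vector. The cause of these moves was not tested. No call of a member changed direction in any alternative that was run.

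Deviations of livers with the same replicate number were weakly correlated (−0.204 to 0.278). The labels do not say what the number stands for, and with so few livers these values cannot show whether it pairs them. With the replicate number as a block, 3 members passed between rAAV9-ST3GAL5.v1 and AAV9.EGFP, where 2372 of all 14875 genes did. Between the E332K vector and AAV9.empty 0 members passed, where 1072 of 14759 genes did. The V-ATPase subunits of rAAV9-ST3GAL5.v1 against AAV9.empty went from 7 higher to 1, where 3124 of 14876 genes passed with the block.

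Against the counts in edgeR, TPM moved the median over all genes by −0.12 (rAAV9-ST3GAL5.v2 against AAV9.empty) to 0.20 (rAAV9-ST3GAL5.v1 over the E332K vector), so a direction in TPM is relative to that shift. Over all genes, the count in edgeR and the range over alternatives other than the fold threshold and single libraries were 4183 and 614 to 4560, 2216 and 841 to 2571, 64 and 27 to 264, 783 and 484 to 1330, 2887 and 1144 to 4991, 4133 and 2372 to 4516, and 45 and 1 to 330. A median SE of 0.08 to 0.12 per member means that small log2 fold changes were at the limit of these group sizes, and Ids, Gla, Idua and Galc had the lowest TPM.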
